A study of Mus musculus with 3 samples.

Results

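Described here are 41 genes of mitosis and cytokinesis, measured in cultures of the mouse macrophage-like line J774A.1 in 3 media. They were chosen by name, from a list set by function, and all 41 were found among the 27572 genes of the arrays, on 71 probes. Sorted by role, they are 5 cyclins and CDK1-activating phosphatases, 3 mitotic kinases, 4 subunits of the chromosomal passenger complex, 4 spindle checkpoint genes, 5 genes of anaphase control and the ubiquitin ligase that drives it, 5 kinesin motors, 2 centromere and kinetochore genes, 4 spindle-associated proteins, 6 genes of the central spindle and cytokinesis, and 3 of chromosome structure. J774A.1 cells, an established proliferating line, had been kept for 6 h in EBSS with SB202190 at 10 µM, in EBSS alone, or in RPMI medium with 10% fetal bovine serum. SB202190 blocks the stress kinase p38, and EBSS is a salt and glucose buffer that holds no amino acids. The series is titled as a study of amino acid deprivation. Its design text can also be read as RPMI in all 3 cultures, and the source names of the channels, which give 1 medium each, were followed. Whether the EBSS cultures held serum or the inhibitor's solvent, and whether both channels of a medium came from 1 RNA extract, was not stated. Every culture was the same line, with no genetic change named in the labels, and all 3 were treated for the same time.

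In a dividing cell CDK1 bound to cyclin B drives entry into mitosis, together with the Polo-like and Aurora kinases. The spindle checkpoint then holds the anaphase-promoting ubiquitin ligase until every chromosome is attached, and the ligase starts anaphase by marking securin and cyclin B for destruction. Most of these genes are transcribed late in the cell cycle, through promoters bound by the MuvB complex with B-MYB and FOXM1, so that resting cells hold little of their mRNA.

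The data are 3 two-colour arrays on 1 slide. One array set RPMI (Cy5) against EBSS (Cy3), one EBSS (Cy5) against EBSS with SB202190 (Cy3), and one EBSS with SB202190 (Cy5) against RPMI (Cy3), so that each medium was read once in each dye. Each medium was 1 sample, so there is no test and no p-value. Each log2 ratio was fitted over all 3 arrays and is given with a technical SE. This SE comes from how far the 3 ratios miss closing the loop over all probes of similar intensity. It is shared by genes of like brightness, so it does not measure how well 1 gene closed its loop. It also leaves out the spread between cultures. The number of arrays limits the precision. Genes are called lower or higher from a log2 ratio of 1 in either direction (2-fold), where both the array with the 2 media and the path through the other 2 arrays had that sign and at least 0.5, and the probe was well above background. Such genes are written as counted. All 41 genes were well above background in every channel, with technical SEs of 0.10 to 0.18 (median 0.12). All 11 macrophage markers were well above background in every channel, as was 1 of 4 T cell markers (Lck) and 1 of 2 erythroid markers (Hba-a1), and none of the 4 B cell, 4 fibroblast, 4 epithelial and 3 endothelial markers. The 3 comparisons share their samples, so no 2 of them are independent.

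Both starved cultures held less of most mitotic mRNAs than RPMI, relative to all genes. In EBSS against RPMI, 5 of the 41 genes were counted as lower (Ccna2, Birc5, Kif22, Kif20a and Pttg1) and 0 as higher, where 2.82% of the 11871 measured genes were lower and 4.48% higher. The median log2 ratio of the 41 was -0.46 (range -1.83 to 0.29), against 0.0025 for all genes. Against RPMI, the culture with EBSS and SB202190 had 13 genes counted as lower and 0 as higher, where 2.43% of 11861 measured genes were lower and 1.47% higher. Their median was -0.62 (range -2.14 to 0.39), against 0.015 for all genes. These medians depend on the scaling of the arrays: with each array centred on its median over all spots, in place of loess, they were 0.55 in EBSS and -0.16 in EBSS with SB202190, where all genes had 0.81 and 0.34. The differences from all genes were then -0.26 and -0.49, and 31 and 38 of the 41 genes lay below the median of all genes, where loess gave 39 in each. Relative to 0 rather than to all genes, 36 of the 41 changed sign in EBSS over RPMI under that centring, and only Ccna2, Birc5 and Espl1 were below 0 there. The ratios below are after loess unless another scaling is named.

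With SB202190 added to EBSS, the genes lay on both sides of 0 after loess. Set against EBSS, 4 of 41 were counted as lower (Ccnb1, Prc1, Plk1 and Aurka) and 0 as higher, where 2.93% of 11691 measured genes were lower and 0.89% higher. The median was -0.19 (range -1.34 to 0.86), with 22 genes below 0 and 19 above, where 49.96% of all genes were below 0. How many lay above 0 depended on the scaling. With median centring 39 were below 0 and 2 above, where all genes had a median of -0.45. Centring on bright probes gave 27 below and 14 above. At a lower size of 1.5-fold, with both paths at least 0.29, 8 genes were lower (8.86% of all genes) and 3 were higher (5.06%), namely Ccna2, Birc5 and Cdca3. The same size gave 15 genes lower in EBSS than in RPMI (8.89% of all genes) and 0 higher (10.7%), and 21 lower in EBSS with SB202190 than in RPMI (7.29%) and 0 higher (5.24%). Bulk RNA does not tell fewer cells in mitosis from less mRNA in each such cell.

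**Figure D1:**
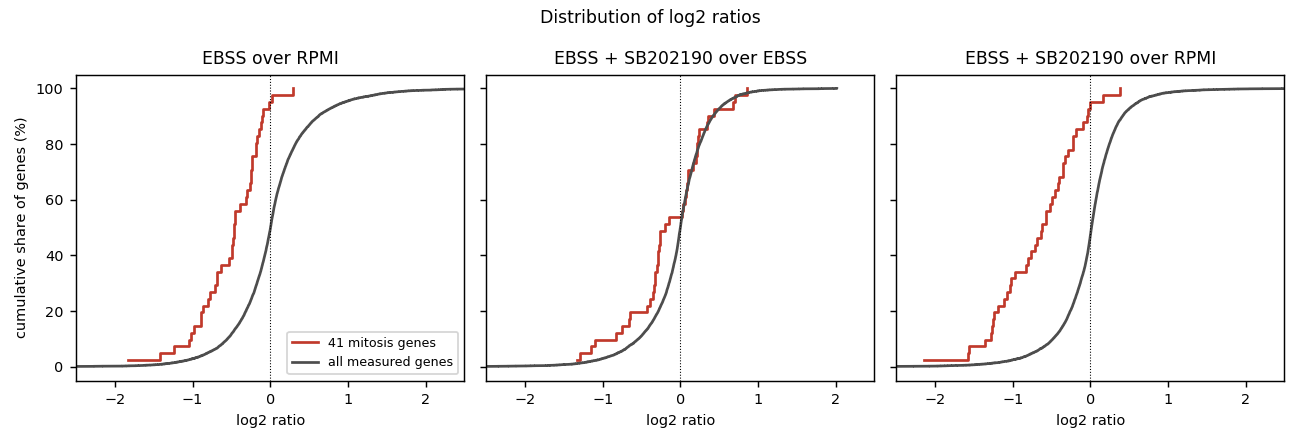
Cumulative share of genes (y axis, percent) by log2 ratio (x axis) in 3 comparisons, for the 41 mitosis genes (red) and all measured genes (grey). After loess the red curve lies left of the grey one in EBSS over RPMI (medians -0.46 and 0.0025) and in EBSS with SB202190 over RPMI (-0.62 and 0.015), while in EBSS with SB202190 over EBSS it departs mainly at its lower end (-0.19 and 0.0005). With median centring the 3 medians of the 41 genes were 0.55, -0.16 and -0.69, where all genes had 0.81, 0.34 and -0.45.

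Taken gene by gene after loess, a difference larger than 2 technical SE put 29 of the 41 (70.73%) lower in EBSS than in RPMI, where 25.64% of the 11359 genes measured in all comparisons were. For EBSS with SB202190 against RPMI it was 32 (78.05%), against 22.06% of all genes. Between EBSS with SB202190 and EBSS, 19 were lower (46.34%, against 23.72% of all genes) and 8 were higher (19.51%, against 21.3%). In 10 genes the levels went down in steps, lowest in EBSS with SB202190, between in EBSS and highest in RPMI (24.39%, against 2.298% of all genes): Plk1, Nek2, Cdc20, Espl1, Kif11, Kif22, Cenpf, Tpx2, Nusap1 and Kif23. For EBSS over RPMI the path through the other 2 arrays gave only -0.09 for Cenpf and -0.08 for Kif11. The rest of these 10 had -0.39 or lower by that path. Another 8 genes were lowest in EBSS by both steps (19.51%, against 12.33% of all genes). Both patterns depend on the scaling. With median centring only Ccna2, Birc5 and Espl1 of the 41 were below 0 in EBSS over RPMI. By the technical SEs after loess, no gene then kept either pattern. Birc5 (-0.09) and Espl1 (-0.08) were within 2 technical SE of RPMI in EBSS. Ccna2 in EBSS with SB202190 was within 2 technical SE of EBSS (0.18). Since the middle sample enters both steps of such a pattern, its error does too.

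**Figure D2:**
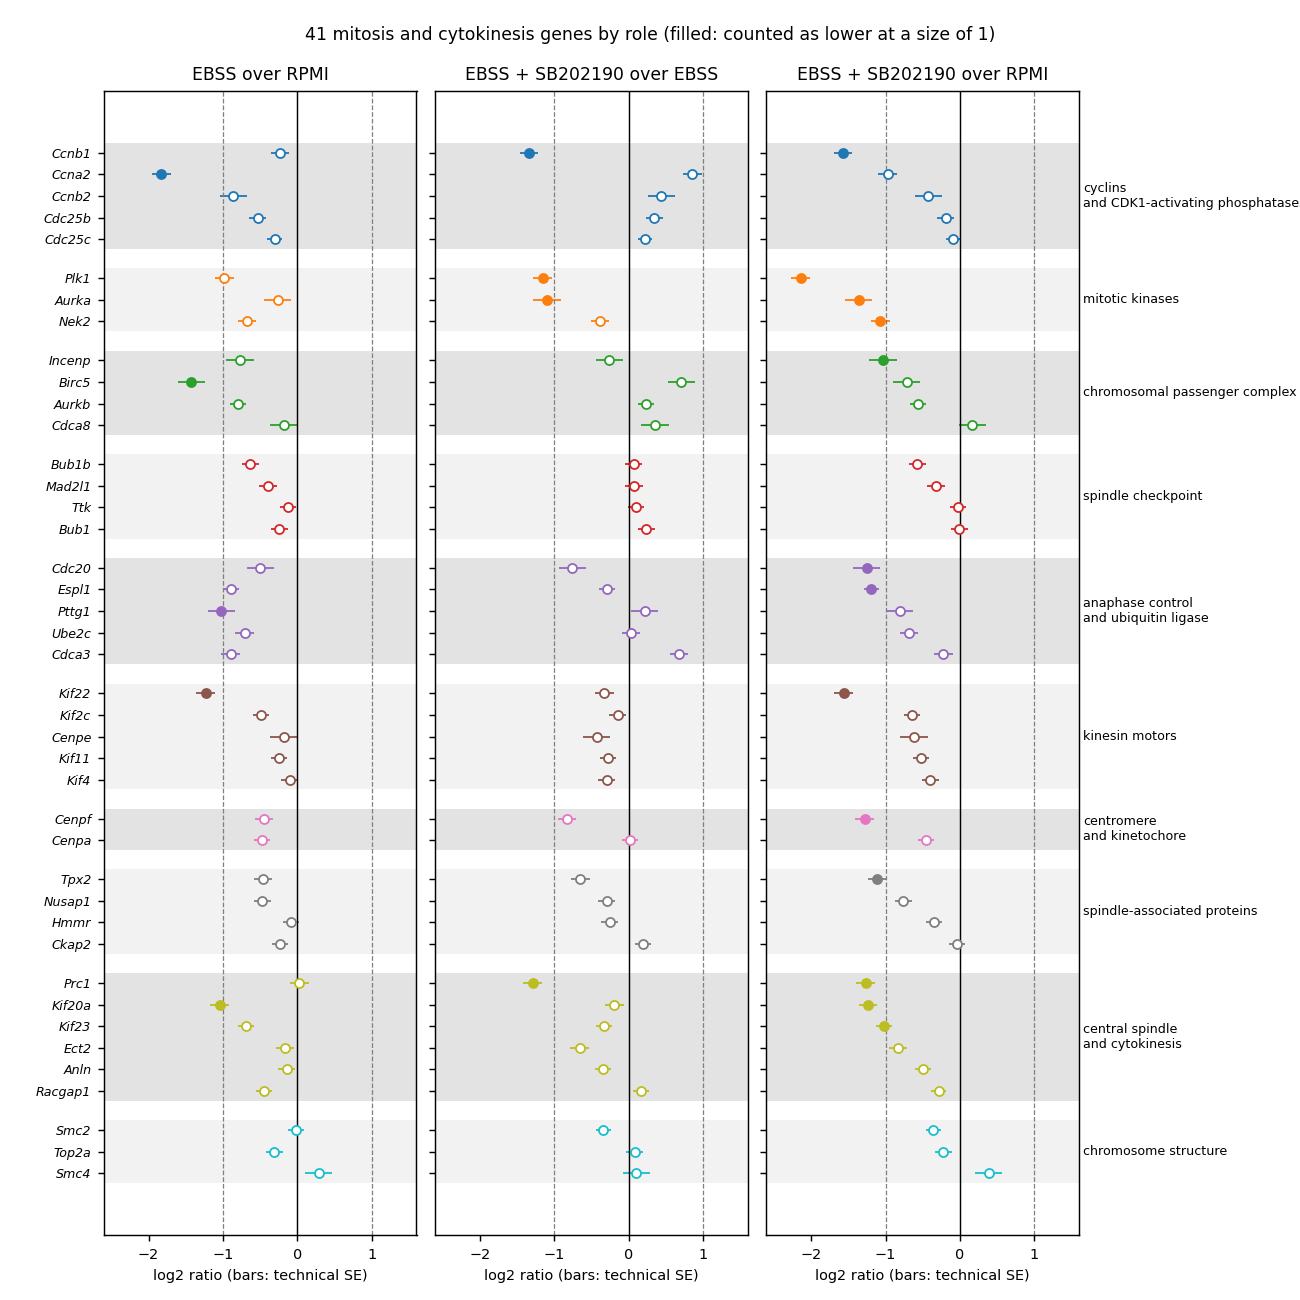
Log2 ratios of the 41 genes (x axis) with their technical SE (bars), grouped by role down the page, in 3 panels, EBSS over RPMI, EBSS with SB202190 over EBSS, and EBSS with SB202190 over RPMI. Filled points were counted as lower at a log2 ratio of 1 in size (5, 4 and 13 genes). The checkpoint genes have no filled point, all 3 mitotic kinases are filled in the panel of EBSS with SB202190 over RPMI, and Ccna2 and Ccnb1 lie at opposite ends of their group in the first 2 panels.

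The promoters of the genes were searched for the letters of the elements by which late cell cycle genes are known to be bound. The stretches shown are the 150 bases before the start of 10 genes that carry the results below, 5′ to 3′ on the gene's strand (RefSeq, GRCm38.p6). Capitals mark CCAAT (or ATTGG, its reverse complement), the site of the factor NF-Y, and TTTGAA or TTCGAA (or TTCAAA, the reverse complement of the first), the cell cycle homology region (CHR) that MuvB binds. The first 4 were lower in EBSS with SB202190 than in EBSS, and Ccnb2 and Cdca3 were above it there after loess. Cdc20 stepped down after loess. Kif22, Birc5 and Pttg1 were counted as lower in EBSS than in RPMI after loess, the last 2 with no match.
Ccnb1: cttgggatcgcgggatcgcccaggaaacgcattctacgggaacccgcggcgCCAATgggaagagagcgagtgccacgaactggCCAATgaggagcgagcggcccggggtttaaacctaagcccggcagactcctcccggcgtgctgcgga
Aurka: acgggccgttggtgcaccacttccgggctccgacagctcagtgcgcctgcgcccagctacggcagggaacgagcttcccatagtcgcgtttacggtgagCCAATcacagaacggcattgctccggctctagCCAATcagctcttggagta
Plk1: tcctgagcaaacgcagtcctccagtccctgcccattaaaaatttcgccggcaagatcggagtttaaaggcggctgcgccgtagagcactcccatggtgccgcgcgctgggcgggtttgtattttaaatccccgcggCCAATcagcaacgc
Prc1: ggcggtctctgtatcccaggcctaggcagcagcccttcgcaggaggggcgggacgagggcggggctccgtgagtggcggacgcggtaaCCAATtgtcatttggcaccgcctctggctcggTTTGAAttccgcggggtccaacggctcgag
Ccnb2: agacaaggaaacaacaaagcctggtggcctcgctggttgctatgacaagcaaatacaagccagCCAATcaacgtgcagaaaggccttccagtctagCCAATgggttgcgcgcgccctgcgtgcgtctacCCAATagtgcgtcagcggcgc
Cdca3: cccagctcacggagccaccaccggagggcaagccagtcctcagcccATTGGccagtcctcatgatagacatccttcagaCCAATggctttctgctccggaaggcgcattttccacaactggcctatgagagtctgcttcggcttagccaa
Cdc20: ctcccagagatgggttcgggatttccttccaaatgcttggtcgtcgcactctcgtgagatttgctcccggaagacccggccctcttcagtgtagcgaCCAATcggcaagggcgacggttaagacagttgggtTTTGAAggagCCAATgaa
Kif22: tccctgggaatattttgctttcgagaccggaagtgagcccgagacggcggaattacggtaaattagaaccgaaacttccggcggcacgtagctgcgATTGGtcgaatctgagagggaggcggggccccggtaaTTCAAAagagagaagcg
Birc5: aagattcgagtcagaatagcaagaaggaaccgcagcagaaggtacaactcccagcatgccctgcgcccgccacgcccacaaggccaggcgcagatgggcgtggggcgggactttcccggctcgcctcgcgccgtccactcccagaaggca
Pttg1: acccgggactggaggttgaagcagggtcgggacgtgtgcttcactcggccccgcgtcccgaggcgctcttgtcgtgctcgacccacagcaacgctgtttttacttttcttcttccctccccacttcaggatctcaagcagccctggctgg

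The stretches lie at chr13:100786487-100786636 (minus strand) for Ccnb1, chr2:172370571-172370720 (minus) for Aurka, chr7:122159285-122159434 (plus) for Plk1, chr7:80294326-80294475 (plus) for the downstream of 2 listed starts of Prc1, chr9:70421555-70421704 (minus) for Ccnb2, chr6:124830026-124830175 (plus) for Cdca3, chr4:118437344-118437493 (minus) for Cdc20, chr7:127042421-127042570 (minus) for Kif22, chr11:117849087-117849236 (plus) for Birc5 and chr11:43425982-43426131 (minus) for Pttg1. Pairs of CCAAT boxes recur at a set spacing, 32 bases apart in Ccnb1 and Aurka and 33 in Cdca3 and between each of the 3 boxes of Ccnb2. Genes below and genes above 0 in EBSS with SB202190 over EBSS after loess thus carry it. The CHR match of Kif22 ended 12 bases before the start, that of Cdc20 13 and that of Prc1 25. The upstream of the 2 listed starts of Prc1 had no CHR match in its 250 bases. No CHR match overlapped a CCAAT match in these stretches. Over 250 bases before the start, 36 promoters of 34 members were in the table, and 30 of them held CCAAT on either strand (83.33%, against 33.85% of 32851 promoters), 17 held 2 or more (47.22%, against 10.09%) and 7 held a pair 31 to 34 bases apart (19.44%, against 1.084%), a spacing chosen after the sequences were seen. A CHR match stood in 14 (38.89%, against 17.15%), and in the last 100 bases in 7 (19.44%, against 6.134%). Ccna2, Cdc25c, Aurkb, Incenp, Tpx2, Kif20a and Smc4 were not matched, and 5 promoters, those of Birc5, Pttg1, Anln, Mad2l1 and Nusap1, held neither motif in 250 bases. A match describes the letters only, and binding was not measured here.

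The cyclins parted in opposite directions. Cyclin A2 (Ccna2), which acts in S phase and up to early mitosis, and cyclin B1 (Ccnb1), the main partner of CDK1, are given as log2 intensities after scaling, Cy5 before Cy3 in each medium. Ccna2 read 12.56 and 12.57 in EBSS with SB202190, 11.77 and 11.60 in EBSS, and 13.48 and 13.48 in RPMI. The 2 EBSS readings were below all others and the 2 RPMI readings above them, with no overlap between media, and the log2 ratio of EBSS over RPMI was -1.83 ± 0.13 (technical SE, n = 1 sample per medium), 3.55-fold lower. In EBSS with SB202190 it was 0.86 above EBSS, or 0.18 with median centring, and 0.97 below RPMI. Ccnb1 read 10.97 and 11.01 in EBSS with SB202190, 12.39 and 12.18 in EBSS, and 12.46 and 12.49 in RPMI. On this probe, the brightest of Ccnb1, EBSS was within 2 technical SE of RPMI after loess (-0.24 ± 0.12, or 0.87 with median centring). EBSS with SB202190 was 2.53-fold below EBSS (-1.34) and 2.97-fold below RPMI (-1.57). The other 2 Ccnb1 probes gave -1.11 and -0.88 for EBSS with SB202190 over EBSS, and -1.43 and -1.33 over RPMI. In EBSS over RPMI they gave -0.32 and -0.44, both more than 2 technical SE below 0 (technical SE 0.11).

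Cyclin B2 (Ccnb2), the partner of CDK1 at the Golgi and in the cytoplasm, followed Ccna2 rather than Ccnb1 in its order of media. It read 14.09 and 14.27 in EBSS with SB202190, 13.78 and 13.81 in EBSS, and 14.63 and 14.57 in RPMI, with ratios of -0.86 for EBSS over RPMI and 0.44 for EBSS with SB202190 over EBSS (technical SE 0.18), the second turning to -0.36 with median centring. After loess the CDK1-activating phosphatases did not reach 1.5-fold in any comparison. Under the other settings given at the end, Cdc25c went as low as -1.04 in EBSS over RPMI. It was left uncounted there in 11 of 13. Cdc25b had ratios of -0.53 in EBSS over RPMI, 0.34 in EBSS with SB202190 over EBSS and -0.19 in EBSS with SB202190 over RPMI, and Cdc25c of -0.31, 0.22 and -0.09 in the same order.

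Of the 3 mitotic kinases all were counted as lower in EBSS with SB202190 than in RPMI, 2 of them also than in EBSS, and none in EBSS against RPMI. Polo-like kinase 1 (Plk1), which acts at centrosomes, kinetochores and the central spindle, had the lowest ratio of all 41 genes in EBSS with SB202190 over RPMI. It read 11.57 and 11.24 in EBSS with SB202190, 12.43 and 12.54 in EBSS, and 13.56 and 13.68 in RPMI, 3 levels without overlap. The ratios were -2.14 ± 0.13 in EBSS with SB202190 over RPMI (4.41-fold), -1.16 over EBSS, and -0.98 in EBSS over RPMI, just short of the size needed, or 0.17 with median centring. Aurora kinase A (Aurka), which builds the spindle poles, read 13.03 and 13.05 in EBSS with SB202190, 14.08 and 14.19 in EBSS, and 14.39 and 14.46 in RPMI. As on the brightest probe of Ccnb1, EBSS was within 2 technical SE of RPMI after loess (-0.26 ± 0.18, or 1.02 with median centring). The culture with the inhibitor was the low one, at -1.10 against EBSS and -1.36 against RPMI. Nek2, which parts the centrosomes, had -0.68 in EBSS over RPMI, -0.39 in EBSS with SB202190 over EBSS and -1.07 in EBSS with SB202190 over RPMI. The median of the 3 kinases was -1.10 in EBSS with SB202190 over EBSS, and -1.82 with median centring, where all genes had -0.45.

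**Figure D3:**
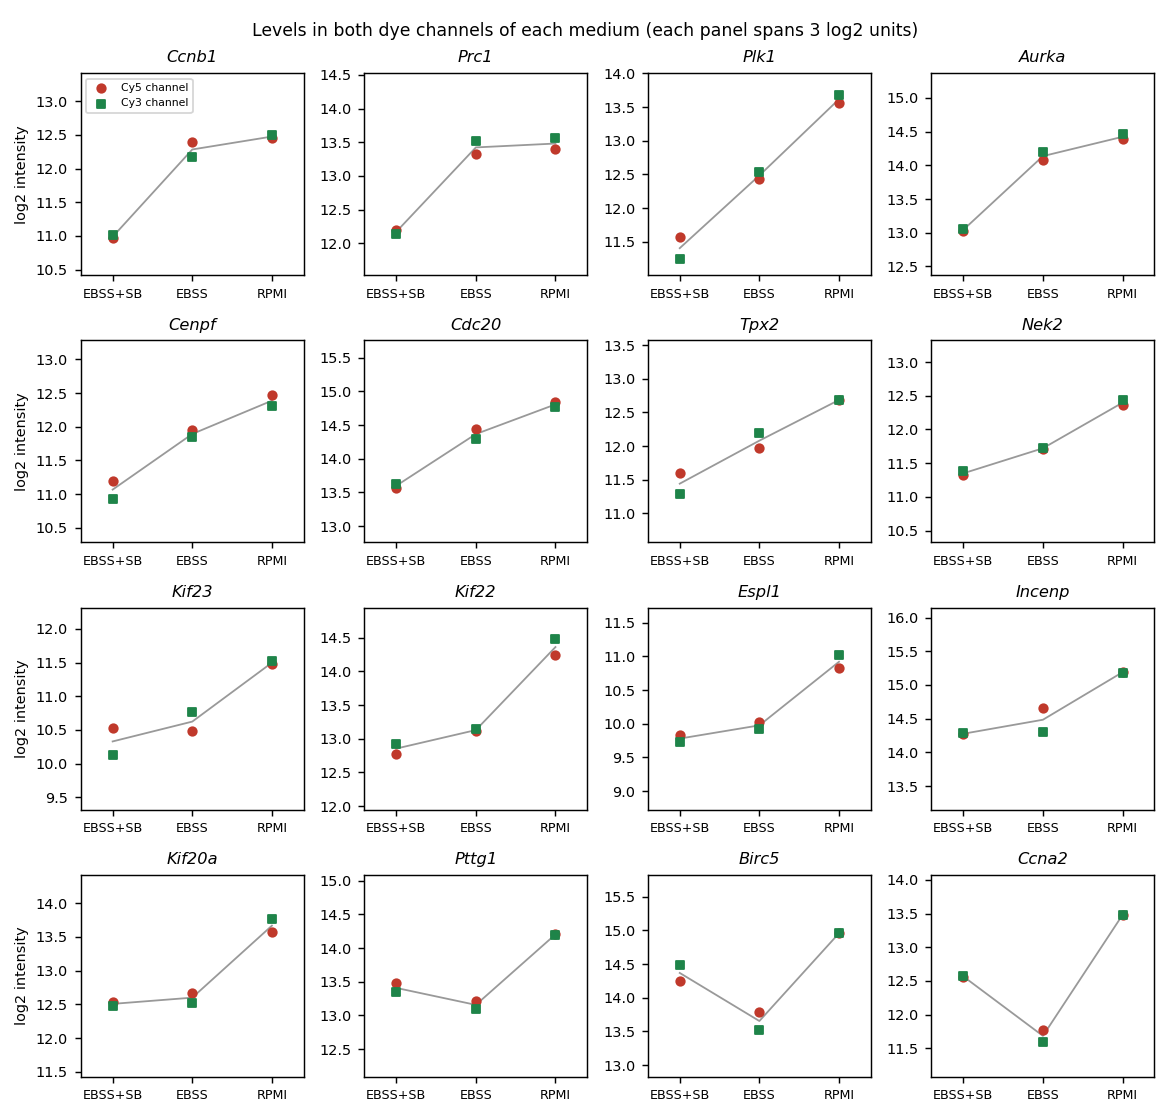
Log2 intensity after scaling (y axis, 3 log2 units in each panel) of 16 genes in EBSS with SB202190, EBSS and RPMI (x axis), in the Cy5 (red circles) and the Cy3 (green squares) channel, with a line through their means. All levels are after loess. Ccnb1, Prc1 and Aurka are low in the culture with SB202190, Plk1, Cenpf, Cdc20 and Tpx2 are lowest there with EBSS between it and RPMI, and Birc5 and Ccna2 are lowest in EBSS.

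The subunits of the chromosomal passenger complex did not follow one pattern. This complex corrects faulty attachments and later marks the central spindle. Survivin (Birc5), its targeting subunit, read 14.25 and 14.49 in EBSS with SB202190, 13.79 and 13.52 in EBSS, and 14.96 and 14.96 in RPMI. EBSS was lowest in both dyes, 2.69-fold below RPMI (-1.43 ± 0.18), and EBSS with SB202190 lay between, 0.71 above EBSS and 0.72 below RPMI. With median centring Birc5 was at -0.09 in EBSS over RPMI, no longer counted, -0.09 in EBSS with SB202190 over EBSS and -0.17 in EBSS with SB202190 over RPMI. The scaffold Incenp read 14.27 and 14.28 in EBSS with SB202190, 14.66 and 14.31 in EBSS, and 15.19 and 15.18 in RPMI. Both starved cultures were below RPMI in both dyes, with ratios of -0.77 in EBSS and -1.03 in EBSS with SB202190, the second counted as lower, or 0.59 and -0.49 with median centring, and the Cy3 readings of the 2 starved cultures nearly met. Aurora kinase B (Aurkb), the catalytic subunit, had ratios of -0.80 in EBSS over RPMI, 0.23 in EBSS with SB202190 over EBSS and -0.57 in EBSS with SB202190 over RPMI. Borealin (Cdca8) had -0.19, 0.35 and 0.17, a second probe 0.10, 0.04 and 0.14, and its remaining probe was not well above background.

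None of the 4 spindle checkpoint genes was counted in any comparison. Their ratios in EBSS over RPMI were -0.64 for Bub1b, -0.40 for Mad2l1, -0.25 for Bub1 and -0.12 for Ttk, the kinase Mps1. With median centring all 4 were above 0 there, with a median of 0.59, or -0.22 relative to all genes. After loess all 4 were between 0.07 and 0.24 in EBSS with SB202190 over EBSS, and between -0.57 and -0.01 in EBSS with SB202190 over RPMI. Only Bub1, at 0.24, lay more than 2 technical SE from EBSS in the culture with the inhibitor.

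The 5 genes of anaphase control had a median of -0.90 in EBSS over RPMI, and 4 of them were past 1.5-fold there. With median centring their median was 0.31, which is -0.50 relative to all genes. Securin (Pttg1), which holds separase until anaphase, read 13.48 and 13.34 in EBSS with SB202190, 13.21 and 13.10 in EBSS, and 14.21 and 14.20 in RPMI. RPMI stood above both starved cultures, with -1.02 ± 0.18 for EBSS over RPMI, or 0.24 with median centring, and -0.81 for EBSS with SB202190 over RPMI. Cdc20, which activates the ubiquitin ligase, read 13.57 and 13.63 in EBSS with SB202190, 14.44 and 14.29 in EBSS, and 14.85 and 14.77 in RPMI. Its 3 levels did not overlap after loess. The larger step was the one with the inhibitor, -0.76 against EBSS, where EBSS over RPMI had -0.50, adding up to -1.26. With median centring EBSS over RPMI was at 0.82. Separase (Espl1), the protease that cuts cohesin, read 9.83 and 9.73 in EBSS with SB202190, 10.03 and 9.93 in EBSS, and 10.83 and 11.02 in RPMI. Here the larger step after loess was the one between EBSS and RPMI (-0.90), and EBSS with SB202190 was counted as lower than RPMI (-1.19 ± 0.11) and was -0.29 against EBSS. With median centring the first step was -0.08 and the step with the inhibitor -0.69, so that the order of the 2 steps turned.

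Ube2c, a ubiquitin-conjugating enzyme that works with the ligase, had -0.71 in EBSS over RPMI and -0.68 in EBSS with SB202190 over RPMI. It had 0.03 in EBSS with SB202190 over EBSS, so that the 2 starved cultures were within the technical SE of 0.12. Cdca3, an adaptor that promotes mitotic entry, was instead one of the 8 genes lowest in EBSS. It read 13.05 and 12.97 in EBSS with SB202190, 12.36 and 12.23 in EBSS, and 13.20 and 13.20 in RPMI. EBSS was at -0.90 against RPMI, and EBSS with SB202190 was 0.67 above EBSS (0.37 on its other probe and -0.04 with median centring) and within 2 technical SE of RPMI (-0.22 ± 0.13).

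All 5 genes grouped as kinesin motors had ratios below 0 in all 3 comparisons after loess. Median centring put all 5 above 0 in EBSS over RPMI (median 0.57, or -0.24 relative to all genes) and 1 in EBSS with SB202190 over RPMI. Centring on bright probes left 3 of 5 below 0 in EBSS over RPMI and 4 of 5 in EBSS with SB202190 over EBSS, where Kif2c was at 0.12. Kif22, which helps push chromosome arms towards the metaphase plate, was the one counted in this group after loess. Under the other settings given at the end, Kif2c was left uncounted in 11 of 13 in each comparison with RPMI. The kinesins Kif20a and Kif23, also counted, are grouped with the central spindle below. Kif22 read 12.78 and 12.93 in EBSS with SB202190, 13.11 and 13.14 in EBSS, and 14.24 and 14.48 in RPMI. RPMI stood above both starved cultures, by most of the difference already in EBSS (-1.24 ± 0.13, 2.36-fold, or 0.0145 with median centring), with EBSS with SB202190 at -0.33 against EBSS and -1.56 against RPMI. Kif2c, Kif11, Cenpe and Kif4, which depolymerise, slide or walk along spindle microtubules, ranged from -0.49 to -0.10 in EBSS over RPMI, from -0.43 to -0.15 in EBSS with SB202190 over EBSS and from -0.64 to -0.40 in EBSS with SB202190 over RPMI.

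At the kinetochore, the large coat protein Cenpf and the centromeric histone Cenpa were alike in EBSS over RPMI and apart with the inhibitor. Cenpf read 11.20 and 10.93 in EBSS with SB202190, 11.94 and 11.84 in EBSS, and 12.47 and 12.30 in RPMI, in 3 levels without overlap. Cenpf had -0.45 in EBSS over RPMI (0.64 with median centring), -0.83 in EBSS with SB202190 over EBSS and -1.28 in EBSS with SB202190 over RPMI, the last counted as lower. Cenpa had -0.48, 0.02 and -0.46 in the same order. Among the spindle-associated proteins Tpx2, the activator of Aurora A at the spindle, went with its kinase in the culture with the inhibitor. It read 11.60 and 11.29 in EBSS with SB202190, 11.97 and 12.20 in EBSS, and 12.69 and 12.68 in RPMI. The ratios were -0.46 in EBSS over RPMI (0.65 with median centring), -0.65 in EBSS with SB202190 over EBSS and -1.11 ± 0.12 over RPMI. Nusap1, which bundles spindle microtubules, had -0.47, -0.29 and -0.76 in the same order. Hmmr (-0.09, -0.26 and -0.35) and Ckap2 (-0.24, 0.20 and -0.04) did not reach 1.5-fold.

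The genes of the central spindle and cytokinesis held contrasting patterns within one structure. Prc1, which bundles the antiparallel microtubules of the central spindle, read 12.20 and 12.14 in EBSS with SB202190, 13.33 and 13.52 in EBSS, and 13.40 and 13.57 in RPMI. EBSS and RPMI overlapped in their readings after loess (0.02 ± 0.13). Median centring put EBSS at 1.23 over RPMI, counted as higher, as were 35.82% of all genes under that centring. After loess the culture with SB202190 was 2.45-fold below EBSS (-1.29) and 2.41-fold below RPMI (-1.27). Kif20a, a kinesin of the same midzone that brings Plk1 and the passenger complex there, read 12.53 and 12.48 in EBSS with SB202190, 12.67 and 12.53 in EBSS, and 13.57 and 13.77 in RPMI. In contrast to Prc1 its 2 starved cultures nearly met, at -1.04 ± 0.13 in EBSS over RPMI (0.16 with median centring) and -1.24 in EBSS with SB202190 over RPMI, and -0.19 between them. A second probe gave -0.97, -1.20 and -0.23 for the same ratios.

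Kif23, the motor of centralspindlin, read 10.53 and 10.13 in EBSS with SB202190, 10.49 and 10.76 in EBSS, and 11.48 and 11.52 in RPMI. Its starved cultures overlapped in Cy5 and lay below RPMI, and EBSS with SB202190 over RPMI was just past the size needed (-1.02 ± 0.11). Racgap1, the other subunit of centralspindlin, was at -0.45 in EBSS over RPMI, 0.17 in EBSS with SB202190 over EBSS and -0.29 in EBSS with SB202190 over RPMI. Ect2, the exchange factor that turns on RhoA for the contractile ring, had -0.17, -0.66 and -0.83, with -0.22 on its other probe for EBSS with SB202190 over EBSS, and the ring scaffold anillin (Anln) had -0.15, -0.35 and -0.50.

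After loess none of the 3 genes of chromosome structure reached 1.5-fold in any comparison. Smc4, a condensin subunit, had the highest ratio of the 41 in both comparisons with RPMI. It read 15.12 and 15.10 in EBSS with SB202190, 15.05 and 14.97 in EBSS, and 14.73 and 14.68 in RPMI, which gave 0.29 ± 0.18 in EBSS over RPMI and 0.39 in EBSS with SB202190 over RPMI. With median centring it was at 1.69 in EBSS over RPMI, counted as higher, as were 35.82% of all genes. It was then at 0.91 in EBSS with SB202190 over RPMI. Its partner Smc2, whose brightest probe had an outlier spot and was left out, had -0.02, -0.34 and -0.36 (EBSS over RPMI, EBSS with SB202190 over EBSS, EBSS with SB202190 over RPMI). Topoisomerase II alpha (Top2a) had -0.31, 0.08 and -0.23.

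Each ratio was also read apart from the array that held both media and from the path through the other 2. Over the 41 genes these disagreed by at most 0.54 in size, and no counted gene had estimates of opposite sign, as the rule requires. Other probes, 19 of them well above background in all channels and from 16 genes, gave medians of -0.16 in EBSS over RPMI, -0.13 in EBSS with SB202190 over EBSS and -0.21 in EBSS with SB202190 over RPMI, where the brightest probes of the same genes had -0.24, -0.19 and -0.36. Opposite signs were found for 4, 2 and 0 of these probes in the 3 comparisons, and for 0 where the brightest probe was past 1.5-fold.

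**Figure D4:**
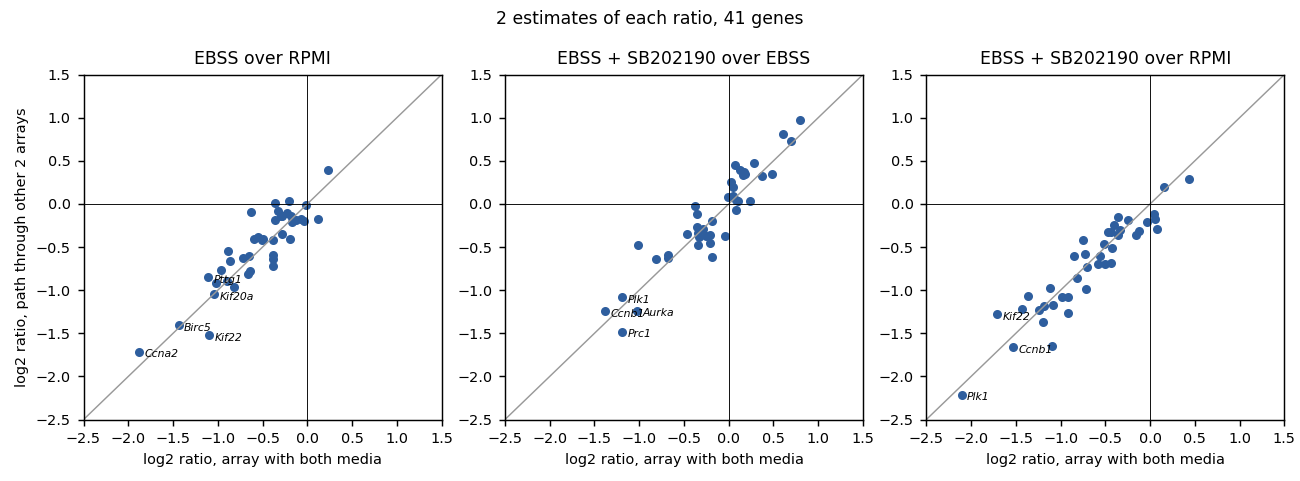
For each of the 41 genes, the log2 ratio from the array that held both media (x axis) against the ratio through the other 2 arrays (y axis), in 3 comparisons, with the line of equality. Genes counted as lower are named, in the last panel only those below -1.5. The points follow the line, with differences of at most 0.54 in size.

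Other genes of division were set beside the 41. Of 131 more mitosis genes on the array, 129 were measured in EBSS over RPMI, and their median was -0.20. Of the 129, 2 were counted as lower, the kinase Melk (-1.55) and the spindle protein Tacc3 (-1.05), and 1 as higher, the dynein regulator Ndel1 (1.55). Of all genes 2.82% were lower and 4.48% higher there. The median of the 129 in EBSS with SB202190 over EBSS was -0.06, and 5 were lower (2.93% of all genes). These were the inner kinetochore genes Cenpq (-1.14) and Cenpl (-1.02), the ubiquitin-conjugating enzyme Ube2s (-1.14), Ndel1 (-1.07) and the importin Kpna2 (-1.02). The phosphatase Cdc14a was higher (1.12, with its 4 other probes not above background), where 0.89% of all genes were. Over RPMI, EBSS with SB202190 gave a median of -0.16. Kpna2 (-1.82), cyclin F (Ccnf, -1.51), the kinase Pbk (-1.34) and Melk (-1.01) were lower, where 2.43% of all genes were lower and 1.47% higher. Nsl1, of the Mis12 kinetochore complex, was higher at 1.49, where its other probe had -0.17. Relative to all genes the 3 medians were -0.08, -0.08 and -0.12 with median centring.

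Of 26 regulators of mitotic transcription none was counted in EBSS over RPMI or in EBSS with SB202190 over EBSS. The activators Foxm1 and Mybl2 (B-MYB) were lowest in EBSS after loess, as was Ccna2, at -0.73 and -0.93 in EBSS over RPMI, 0.61 and 0.91 in EBSS with SB202190 over EBSS, and -0.12 and -0.03 in EBSS with SB202190 over RPMI. Lin9, a MuvB subunit, was lowest in the culture with the inhibitor, as was Ccnb1, at 0.06, -0.92 and -0.86 in the same comparisons (0.03, -0.28 and -0.24 on its second probe). The chromatin protein Hmgb2 (-1.31) and the repressor E2f7 (-1.27) were counted as lower in EBSS with SB202190 than in RPMI, as were 2.43% of all genes.

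The genes of DNA replication, which act in S phase, had a median of -0.40 over 51 genes in EBSS over RPMI. In the culture with the inhibitor 35 of 51 were above their level in EBSS, where 49.96% of all genes were below 0, with a median of 0.26, and 2 were counted as higher (0.89% of all genes), the polymerase subunit Pold1 (1.67) and thymidine kinase Tk1 (1.13). In EBSS over RPMI 5 were counted as lower (2.82% of all genes): Pold1 (-1.81), cyclin E1 (Ccne1, -1.52), Tk1 (-1.49), geminin (Gmnn, -1.22) and Pole2 (-1.04). The median of EBSS with SB202190 over RPMI was -0.13, and Ccne1 (-1.65) and Ccne2 (-1.12) were lower, as were 2.43% of all genes. Relative to all genes, the medians with median centring were -0.10 in EBSS over RPMI and 0.023 in EBSS with SB202190 over EBSS, so that most of both shifts depended on the scaling. A second probe of Ccne1 had -0.63 in EBSS over RPMI and -0.70 in EBSS with SB202190 over RPMI.

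**Figure D5:**
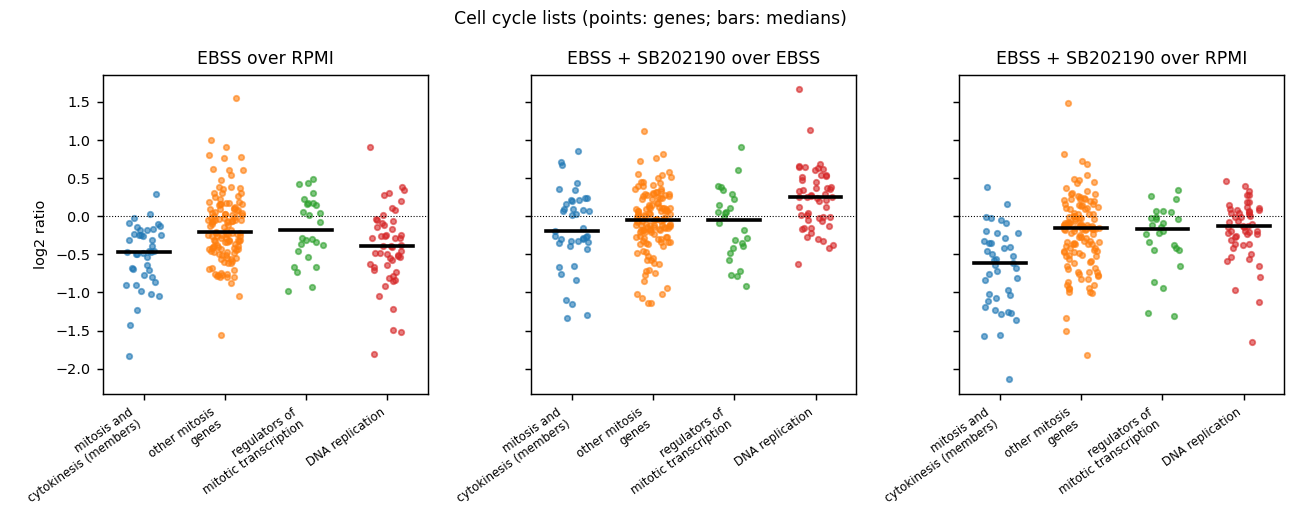
Log2 ratios (y axis) of single genes (points) and medians (bars) for the 41 mitosis and cytokinesis genes, other mitosis genes, regulators of mitotic transcription and DNA replication genes, in 3 comparisons. In EBSS over RPMI the medians are -0.46, -0.20, -0.18 and -0.40, in EBSS with SB202190 over EBSS -0.19, -0.06, -0.05 and 0.26, and in EBSS with SB202190 over RPMI -0.62, -0.16, -0.17 and -0.13, all after loess. With median centring the second panel's median for DNA replication was 0.023 relative to all genes.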

How the data were processed

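Total RNA of J774A.1 cells was amplified, labelled with Cy3 or Cy5 and hybridised to 3 two-colour Agilent arrays of 45018 spots, per the labels' protocols. Per the file headers, the deposited scanner files hold spot intensities from Agilent Feature Extraction 9.5.3.1 and its log10 ratio, background-subtracted and dye-normalised by the authors' scanner software. The deposited series table holds log2 ratios that followed the scanner's log ratio with a correlation of 0.987 to 0.997 and slopes of 1.00 to 1.01 on each array, so its direction (Cy5 over Cy3) and scale were settled, and its column medians were -0.09, -0.08 and -0.17.

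The mean signals were background-corrected here with normexp (offset 50) and normalised by loess within each array, with 1639 control spots at weight 0 and 136 to 178 outlier spots per array left out (limma 3.58.1, R 4.3.3). No spot was saturated. Spots of a probe were averaged, and least squares over the loop of 3 arrays gave each log2 ratio. The technical SE came from the spread of the loop sum in 30 bins of intensity. A gene is its probe of highest mean intensity. Probes were named by accession (24305), current symbol (6298) or older symbol (2425) from RefSeq, and otherwise by the name in the files. Levels are log2 intensities after loess and Aquantile scaling. The fit was tested on simulated data. Negative control spots lay above the local background (218 to 228 against 55 to 59 in Cy3), so ratios of dim probes are understated.

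The 41 members and the other lists were chosen with earlier results of these data known. All members are given with a value or a range, in full where counted in any comparison or at the end of a comparison's range; of the other lists, genes counted in any comparison are named, and of the regulators also those among the 3 largest ratios of a comparison that are discussed. Promoters were 250 bases before each RefSeq start (GRCm38.p6).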

Additional observations from a re-analysis of the deposited data

How the results depend on the processing

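The counts and medians were computed under 13 other settings, 1 of them (the scanner software's background with normexp and loess) chosen after seeing the data, and at 1.5-fold. In EBSS with SB202190 over EBSS, Ccnb1, Aurka and Prc1 stayed counted as lower in all 13. In EBSS with SB202190 over RPMI Ccnb1, Kif22 and Plk1 did. Some of the 13 could not change these calls. A changed filter on dim probes could not, as all 41 members were well above background in every channel. The median over probes could not for Aurka, Prc1, Kif22 and Plk1, with 1 probe each. The scanner's log ratio and the authors' table gave the same counts over all genes. Plk1 against EBSS failed with equal spread between arrays, at -1.25, and Ccna2 in EBSS over RPMI with median centring, at -0.65. With each array centred on its median over all spots, EBSS over RPMI had 3 members higher and 0 lower, where 35.82% of all genes were higher and 0.19% lower. The median of the members was 0.55, with a difference from all genes of -0.26. Of the 41 members 36 changed sign, among them Kif22 (0.0145), Kif20a (0.16) and Pttg1 (0.24), while Birc5 (-0.09) kept its sign and was no longer counted. The median was then -0.69 in EBSS with SB202190 over EBSS and -0.16 over RPMI, with 3 lower there (0.76% of all genes) and a median minus that of all genes of -0.49. Centring on bright probes gave 1 lower (2.85% of all genes), a median of -0.28 and a difference from all genes of -0.26 in EBSS over RPMI. The difference was -0.49 in EBSS with SB202190 over RPMI. Under these 2 centrings 31 members lay below the median of all genes in EBSS over RPMI and 38 in EBSS with SB202190 over RPMI, where loess gave 39 in each. The scanner's log ratio and the authors' table gave 10 lower and a median of -0.61 in EBSS over RPMI, where the share of all genes that were lower also rose, to 9.22% from 2.82%. They gave a difference from all genes of -0.76 in EBSS with SB202190 over RPMI. Equal spread gave 2 higher in EBSS with SB202190 over EBSS (2.22% of all genes), and 7 lower (1.33%), a median of -0.47 and a difference of -0.48 over RPMI. The size of 1.5-fold gave 15 lower in EBSS over RPMI, 3 higher and 8 lower in EBSS with SB202190 over EBSS, and 21 lower over RPMI. The cause of these shifts was not tested.

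Over all genes the share of calls that were higher moved with the setting: in EBSS over RPMI 61.4%, against 46.8% by the scanner's ratio and 99.5% by median centring, in EBSS with SB202190 over EBSS 23.3%, against 50.3%, 2.29%, 33.3% without background subtraction and 36.7% with the software's background, and in EBSS with SB202190 over RPMI 37.7%, against 62.8% by median centring. No paired analysis was possible because each medium was 1 sample. With 3 arrays and no second culture, the spread between cultures is not known.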
